A study of Sus scrofa with 6 samples.

Results

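The nuclear genes of the mitochondrial respiratory chain were examined in 6 clones of pig keratinocytes, 3 from the cornea and 3 from the conjunctiva. Members were the genes whose symbol, as the only symbol of a probe set, began with NDUF, UQCR, SDH plus A to D, COX plus a digit from 4 to 8, or ATP5. The rule found 82 probe sets for 64 of the 6765 genes named on the array by a probe set with 1 symbol. A probe set that listed only ATP5SL, repeated, was treated as having several symbols and left out. For each gene the probe set with the highest mean over the 6 arrays was used. The members comprised 32 subunits of complex I (5 catalytic core and 27 accessory), 4 of complex II, 2 of complex III, 8 of complex IV, 13 of ATP synthase (complex V), and 5 assembly or coupling factors.

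The corneal group held 3 clones from central cornea and the conjunctival group 3 clones from conjunctiva, and the labels name no treatment, age or genotype for either. White domestic pigs were the source, and the labels name 2 animals without saying which clone came from which. Each clone was founded by a single picked keratinocyte and was grown, in both groups, on irradiated 3T3-J2 cells, a line of mouse fibroblasts used as a feeder layer. Total RNA of each clone was hybridised to 1 Affymetrix porcine array, and the project field of the array run files names an irradiation time course that the labels do not mention. The p-values below measure only the spread between these samples, which the labels do not tie to separate cultures or animals. In bulk RNA, fewer cells of one state and less RNA per cell cannot be told apart.

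The respiratory chain passes electrons from NADH (complex I) and succinate (complex II) through ubiquinone to complex III, and then through cytochrome c to complex IV, which reduces oxygen. Complexes I, III and IV pump protons across the inner mitochondrial membrane, and ATP synthase uses the gradient to make ATP. Subunits of complexes I, III, IV and V come from both the nuclear and the mitochondrial genome, whereas complex II is wholly nuclear-encoded and is also an enzyme of the tricarboxylic acid cycle. Stratified epithelia such as the cornea and conjunctiva also draw heavily on glycolysis.

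Arrays had medians between 4.4 and 4.478 on the log2 scale of the robust multi-array average (RMA). Among 4 measured keratinocyte markers, the squamous cell gene SFN, the desmosome gene DSP and the cadherin gene CDH1 lay between 10.58 and 13.05 in all clones, and the probe set of the integrin gene ITGA6 between 3.39 and 3.9. Of the tissue markers 1 of 6 corneal and 3 of 7 conjunctival genes were measured. TKT, abundant in corneal epithelium, lay between 10.45 and 10.96 in all clones, KRT19 spanned 7.01 to 10.44 with overlap, MUC1 stayed between 3.76 and 4.17, and MUC4 was at 3.21 to 5.29 in conjunctival and 2.93 to 3.02 in corneal clones. The other markers of either tissue were not analysed here. Markers of leukocytes (5 measured) and melanocytes (3) had median levels of 3.78 and 3.86, and the 5 endothelial markers 3.75, below the median of all probe sets, 4.45, though PECAM1 reached 8.22. Of 10 fibroblast markers 8 were lower in conjunctiva, with a median difference of -0.17. Their mean level per clone ranged from 5.89 to 5.94 in cornea and from 5.61 to 6.09 in conjunctiva, LUM was near 2.9 in all clones and THY1 lay between 9.66 and 12.24. The part of these in the values below was not tested. Cornea 2 stood apart from the other clones in cell cycle genes, as given beside the results that follow it.

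Members of every complex were represented by bright probe sets. The mean over 6 clones was at or above 8 for 50 of the 64 genes, and only COX7A1 lay below the median of all probe sets. A probe set's brightness depends on its probes, so the order of genes was not read as an order of transcript abundance. Complex I core subunits spanned means of 7.94 to 9.59, accessory subunits 5.16 to 10.28, complex II 8.28 to 9.97, complex III 9.94 to 10.48, complex IV 3.66 to 11.57 and ATP synthase 7.83 to 11.88. The assembly and coupling factors lay at 5.34 to 7.44.

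**Figure D1:**
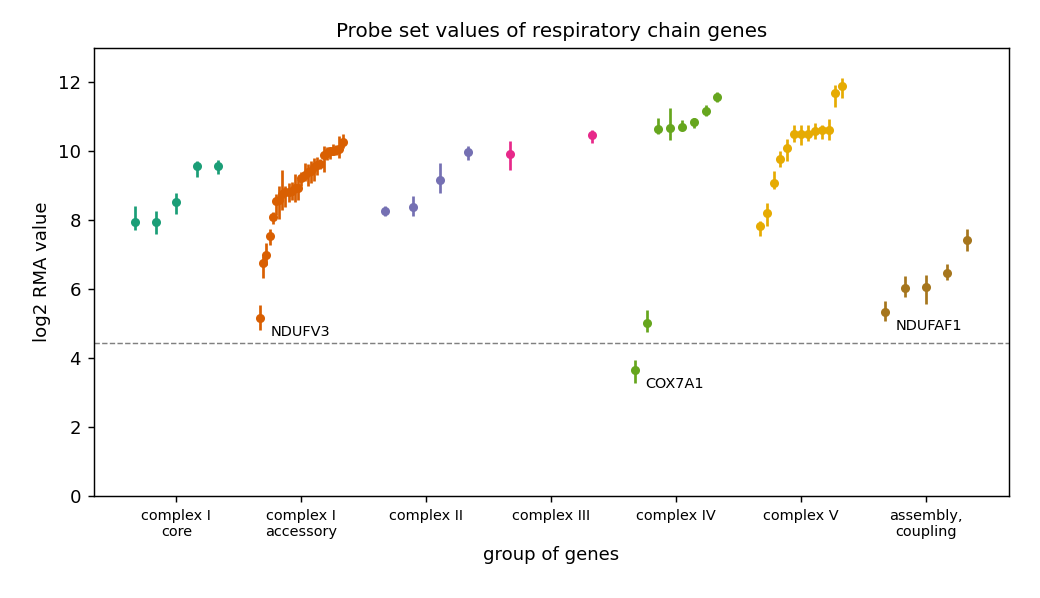
Log2 RMA value of each of the 64 genes, grouped by complex. Points are the mean over 6 clones, vertical lines run from the lowest to the highest clone, and the dashed line marks the median level of all probe sets, 4.45. COX7A1 is the only gene below that line.

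No respiratory chain gene differed between conjunctiva and cornea at an adjusted p of 0.05 (0 of 64 by limma with Benjamini-Hochberg adjustment over all 23999 probe sets, where 0% were called; the smallest adjusted p among members was 0.9999). At an unadjusted p under 0.05 there was 1 member, against 2.7% of all probe sets (1.55% higher and 1.15% lower in conjunctiva). The difference, conjunctiva minus cornea, was above 0 for 40 members and below 0 for 24, with a median of 0.035 (log2), while 49.2% of all probe sets were above 0 and their median was -0.0025. Bright probe sets leaned the same way: of those with a mean of 8 or above, 1364 of 2331 were higher in conjunctiva, with a median of 0.033, against 32 of 50 members of that level, with a median of 0.027. The 64 differences lay between -0.31 (NDUFA4) and 0.37 (COX7A1), and none reached 2-fold, as did 0.488% of all probe sets. The 95% confidence interval lay inside a 2-fold difference for all 64 genes (91.9% of all probe sets) and inside a 1.5-fold difference for 51 (68.7%).

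The sign of the median turned with 1 clone. Without cornea 2 the members split into 17 higher and 47 lower in conjunctiva, with a median of -0.085, and without cornea 3 into 49 and 15, with a median of 0.094. Within fluidics station 1, which processed cornea 1, conjunctiva 2 and conjunctiva 3, the median was 0.0042, and within station 2 it was -0.014, each with 1 array of one tissue. The 3 values of each tissue did not overlap for 2 members, NDUFB7 and COX7A1, both higher in conjunctiva, against 7.28% of all probe sets (3.44% higher and 3.83% lower). Same-numbered clones had positively correlated deviations, which does not show that the number pairs them. In all 3 same-numbered pairs 15 members (6 higher and 9 lower in conjunctiva) had the same sign, against 25.3% of all probe sets. With the clone number as a block 1 member was at an unadjusted p under 0.05 (5.02% of all probe sets), and 0 passed the adjusted threshold.

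**Figure D2:**
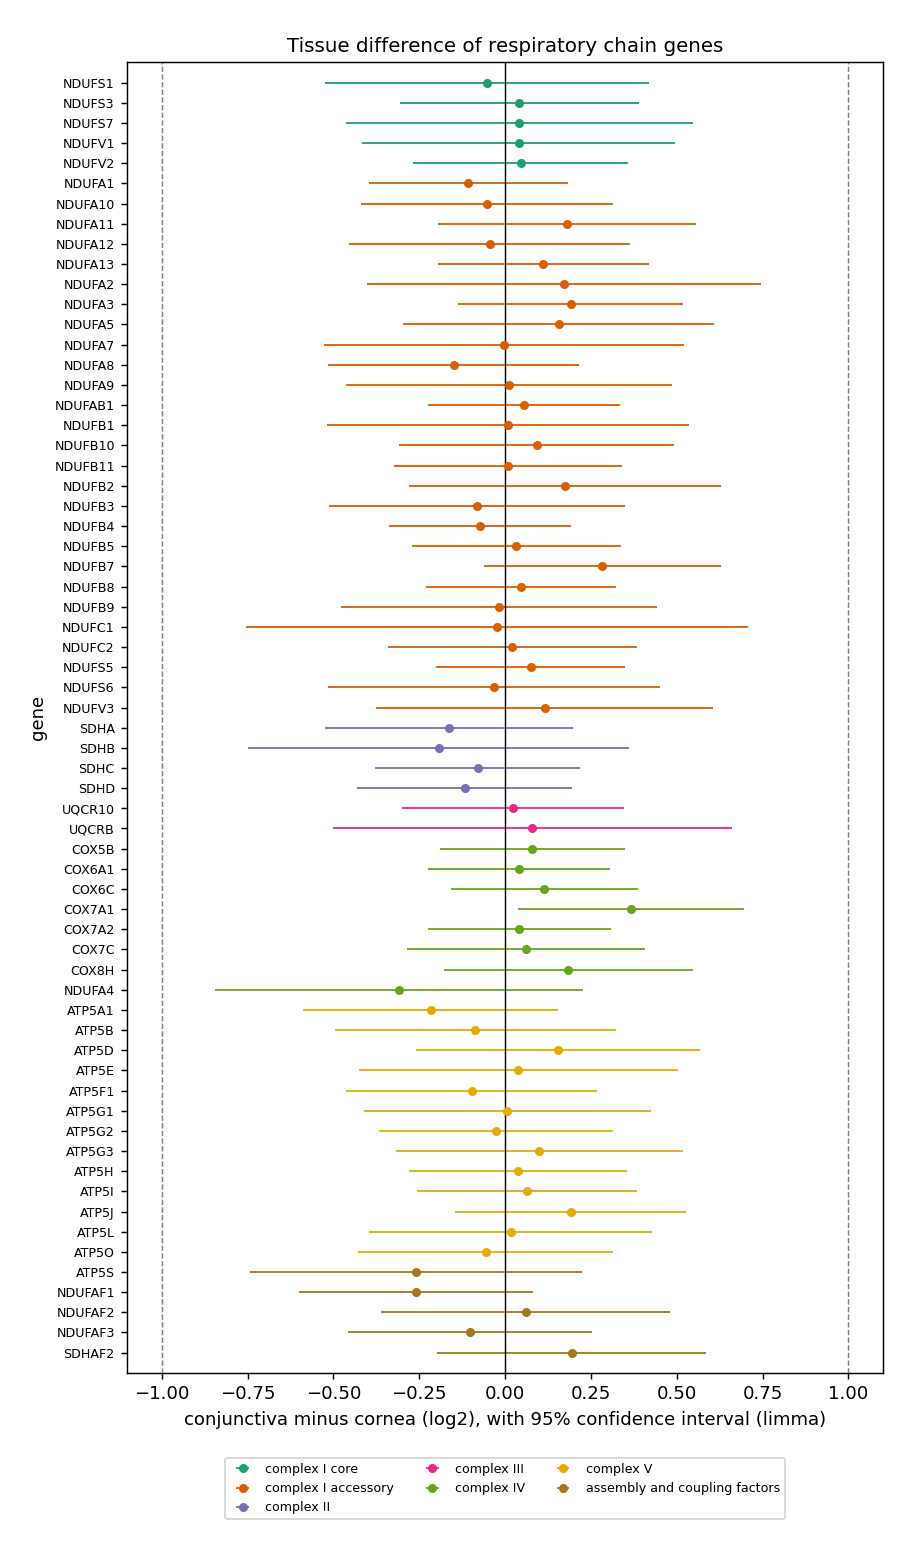
Difference between conjunctiva and cornea (log2) for each of the 64 genes, coloured by complex. Points are the differences of the 3-clone means, bars their 95% confidence intervals from limma, and dashed lines mark 2-fold. Every interval lies inside the dashed lines, and only that of COX7A1 leaves out 0.

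In complex I, which takes electrons from NADH, 21 of 32 subunits were higher in conjunctiva and 11 lower, with a median of 0.036. The 5 core subunits, part of the catalytic machinery, had differences from -0.053 to 0.045. Without cornea 2 all 5 were lower in conjunctiva (median -0.099), without cornea 3 all 5 were higher (0.14), and without conjunctiva 3 the median was -0.085. NDUFS1, which holds several of the clusters, was at 7.93, 7.75 and 8.27 in cornea 1, 2 and 3 and at 7.97, 7.62 and 8.20 in conjunctiva 1, 2 and 3. The number 2 clones were lowest and the number 3 clones highest in both tissues, and the groups overlapped (difference -0.053, SE 0.20). NDUFS7, which binds the last cluster before ubiquinone, stood at 7.85, 7.79 and 8.13 in cornea and 7.77, 7.71 and 8.42 in conjunctiva. NDUFS3 was at 9.72, 9.27 and 9.65 against 9.65, 9.50 and 9.61, and NDUFV2, on the NADH-binding arm, at 9.58, 9.36 and 9.76 against 9.64, 9.53 and 9.66. In both of these cornea 2 was the lowest clone. NDUFV1, the flavin-binding subunit, gave 8.56, 8.18 and 8.78 against 8.48, 8.36 and 8.80.

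Accessory subunits surround the core and support assembly and stability. Of 27 measured, 17 were higher and 10 lower in conjunctiva, with a median of 0.021. Without cornea 2 they were 8 and 19 (median -0.067), without cornea 3 21 and 6 (0.095), and within station 1 they were 12 and 15 (-0.021). NDUFB7, an intermembrane-space subunit, was the one without overlap, at 8.73, 8.39 and 8.88 in corneal and 8.91, 8.99 and 8.94 in conjunctival clones. The gap between the groups was narrow beside the spread of the corneal values, and the difference was 0.28 (SE 0.14, limma adjusted p = 0.9999). NDUFA3 was at 9.31, 9.64 and 9.60 in cornea and 9.54, 9.82 and 9.76 in conjunctiva (difference 0.19, SE 0.14). NDUFA11, in the membrane arm, was at 9.01, 8.58 and 8.98 in cornea and 9.01, 8.90 and 9.21 in conjunctiva (difference 0.18, SE 0.16). In both genes the groups overlapped.

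The accessory subunits with the widest spread among clones were NDUFC1 and NDUFA2. NDUFC1 ranged from 8.31 in conjunctiva 2 to 9.45 in conjunctiva 3, with corneal clones at 8.98, 8.50 and 8.85, so clones of 1 tissue spanned more than the tissue means, which differed by -0.024. NDUFA2 was lowest in cornea 2 at 8.05 and highest in conjunctiva 3 at 8.99, with the other clones between 8.34 and 8.72. At the other end, NDUFB4 lay between 9.49 and 9.77 in all 6 clones, with an SD within tissue of 0.10; it was picked out after its values were seen. NDUFAB1, the mitochondrial acyl carrier protein that is also a complex I subunit, lay between 9.89 and 10.2, and NDUFA13, also known as the cell death gene GRIM-19, between 10.1 and 10.49.

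NDUFA1, a small membrane-arm subunit, was measured by 2 bright probe sets that did not give the same picture. The probe set used lay at 9.93, 9.98 and 10.11 in cornea and 9.76, 9.87 and 10.08 in conjunctiva (difference -0.11, SE 0.12). The other, of mean 9.43, lay at 10.07, 10.08 and 9.33 in cornea and 8.95, 8.79 and 9.38 in conjunctiva (difference -0.78, SE 0.25, unadjusted p = 0.0183 and limma adjusted p = 0.9999). In the second probe set clones 1 and 2 were parted by tissue while clones 3 were nearly equal, so the groups overlapped. It was singled out after its values were seen.

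Complex II, succinate dehydrogenase, was the complex whose measured subunits were all lower in conjunctiva (4 of 4), with a median of -0.14 and differences from -0.19 to -0.079, none past the threshold. The median was -0.048 without conjunctiva 2 and -0.044 without cornea 3, when 1 gene was higher and 3 lower. Within station 1 it was -0.0041, again with 1 higher and 3 lower, and with the mean of a gene's probe sets SDHB turned to 0.11. SDHA, the flavin-binding subunit, was at 8.31, 8.43 and 8.70 in cornea and 8.35, 8.12 and 8.49 in conjunctiva (difference -0.16, SE 0.15). SDHB, the iron-sulfur subunit, was at 9.13, 8.98 and 9.65 against 8.96, 8.79 and 9.43. Its value was lower in conjunctiva in each same-numbered pair, by steps of -0.17, -0.18 and -0.23, while the clones of one tissue spread by more than that (difference -0.19, SE 0.23). The membrane anchor SDHD was at 9.93, 10.0003 and 10.16 against 9.88, 9.75 and 10.10 (difference -0.12, SE 0.13), and the other anchor SDHC at 8.14, 8.42 and 8.41 against 8.24, 8.13 and 8.36. Conjunctiva 2 was the lowest of the 6 clones for all 4 genes, and cornea 3 the highest for SDHA, SDHB and SDHD. A second SDHA probe set, of mean 7.71, differed by -0.35 (SE 0.20), but a second SDHB probe set, of mean 5.92, had the opposite sign at 0.41 (SE 0.24).

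Complex III passes electrons from ubiquinol to cytochrome c, and 2 of its subunits were measured. UQCRB, which binds near the ubiquinone site, ranged from 9.45 in cornea 2 to 10.3 in cornea 3, with cornea 1 at 9.93 and the conjunctival clones at 10.01, 9.68 and 10.23. UQCR10 was at 10.61, 10.23 and 10.55 in cornea and 10.5, 10.58 and 10.38 in conjunctiva. For both genes cornea 2 was the lowest clone and the tissue means differed by less than their standard error (differences 0.079, SE 0.24, and 0.022, SE 0.14). Without cornea 2 both genes were lower in conjunctiva (median -0.12).

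Complex IV, cytochrome c oxidase, had the smallest spread among clones, with a median SD within tissue of 0.14 over its 8 genes, against 0.20 over all members. Of the 8, 7 were higher in conjunctiva, with a median of 0.071; within station 2 the split was 4 and 4, with a median of 0.012. COX6A1, COX7A2, COX5B and COX6C each stayed within 0.27 to 0.34 log2 units over all 6 clones. COX6A1, the isoform used outside muscle, lay at 11.5, 11.62 and 11.52 in cornea and 11.61, 11.71 and 11.44 in conjunctiva (difference 0.040, SE 0.11). COX7A2, the liver-type isoform, lay at 10.86, 10.67 and 10.96 in cornea and 10.89, 10.85 and 10.87 in conjunctiva (difference 0.042, SE 0.11). COX7C was at 10.61, 10.53 and 10.70 against 10.58, 10.50 and 10.95.

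The dim members of the complex were COX7A1 and COX8H, both known as isoforms of heart and skeletal muscle. COX7A1, the muscle counterpart of COX7A2, was at 3.48, 3.68 and 3.28 in corneal and 3.70, 3.94 and 3.90 in conjunctival clones. All conjunctival values were above all corneal ones, but every clone was below the median of all probe sets. The difference was 0.37 (SE 0.14, a 1.29-fold difference, unadjusted p = 0.0339 and limma adjusted p = 0.9999), and it ran from 0.22 to 0.47 over the alternatives tried. COX8H was at 4.77, 5.01 and 5.05 in cornea and 4.98, 5.02 and 5.4 in conjunctiva (difference 0.18, SE 0.15). Of 5 measured muscle markers, DES, ACTN2, CKM and ACTA2 lay between 3.42 and 5.54 in all clones and TAGLN between 8.01 and 10.86; their part in these values was not tested.

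NDUFA4, named for complex I but now assigned to complex IV, had the largest negative difference of the members. It was at 10.78, 10.44 and 11.27 in cornea and 10.54, 10.31 and 10.71 in conjunctiva. Cornea 3 stood above the rest and the other values overlapped (difference -0.31, SE 0.22, 95% confidence interval -0.84 to 0.23, limma adjusted p = 0.9999). The value was lower in conjunctiva in each same-numbered pair.

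ATP synthase was represented by 13 genes, of which 8 were higher and 5 lower in conjunctiva, with a median of 0.016. Without cornea 2 the split was 2 higher and 11 lower (median -0.10), without cornea 3 it was 11 and 2 (0.12), without conjunctiva 3 it was 5 and 8 (-0.030), and with station as a block 5 and 8 (-0.020). ATP5A1 and ATP5B encode the alpha and beta subunits of the catalytic head. ATP5A1 was at 12.05, 11.77 and 12.14 in cornea and 11.8, 11.55 and 11.97 in conjunctiva, lower in conjunctiva in each same-numbered pair with overlapping groups (difference -0.22, SE 0.16). ATP5B was at 10.73, 10.32 and 10.93 against 10.55, 10.48 and 10.7. Of the central stalk, ATP5D (delta) was at 7.84, 8.17 and 8.40 against 8.18, 8.19 and 8.50 (difference 0.15, SE 0.17). ATP5E (epsilon) was at 10.69, 10.25 and 10.55 against 10.18, 10.78 and 10.65 (difference 0.039, SE 0.19). These 2 subunits of the stalk did not share a lowest clone, which was cornea 1 for ATP5D and conjunctiva 1 for ATP5E.

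The genes ATP5G1, ATP5G2 and ATP5G3 encode the same mature c subunit of the rotating ring. They lay at 9.72 in cornea 2 against 10.04 to 10.37 elsewhere for ATP5G1, at 9.56 against 9.66 to 10.001 for ATP5G2, and at 11.27 against 11.69 to 11.92 for ATP5G3. Cornea 2 was thus the lowest clone and cornea 3 the highest for each of the 3, while the tissue differences were 0.0066, -0.026 and 0.10. ATP5J, coupling factor 6 of the outer stalk, was at 8.99, 8.90 and 9.02 in cornea and 9.42, 9.11 and 8.96 in conjunctiva (difference 0.19, SE 0.14). The other stalk and membrane genes ATP5F1, ATP5H, ATP5I, ATP5L and ATP5O differed by -0.098 to 0.063.

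Among the assembly and coupling factors, NDUFAF1, NDUFAF2 and NDUFAF3 help to build complex I, SDHAF2 attaches the flavin of SDHA, and ATP5S is coupling factor B. NDUFAF1 was at 5.52, 5.23 and 5.66 in cornea and 5.25, 5.07 and 5.31 in conjunctiva (difference -0.26, SE 0.14). ATP5S was at 6.42, 5.92 and 6.25 against 6.17, 5.58 and 6.07, also lower in each same-numbered pair (difference -0.26, SE 0.20). SDHAF2 ran the other way, at 7.11, 7.55 and 7.37 against 7.33, 7.76 and 7.52 (difference 0.19, SE 0.16), and was the member of the group in which the number 2 clones were the highest of each tissue. NDUFAF2 was at 5.90, 5.78 and 6.37 against 6.06, 5.96 and 6.22, and NDUFAF3 differed by -0.10. In each of these genes the groups overlapped.

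Over the members the SD within tissue had a median of 0.197, and the size of the tissue difference a median of 0.077. Cornea 2 was the lowest of the 6 clones for 35 of the 64 genes, against 18.5% of all probe sets and 26.6% of the 2331 probe sets with a mean of 8 or above; among the 50 members of that level it was the lowest for 31. The count was again 35 with the arrays centred on their medians. Cornea 3 was the highest clone for 28 genes and cornea 2 for 1, against 5607 and 3119 of all 23999 probe sets. Of the 2331 probe sets with a mean of 8 or above, cornea 3 was the highest for 464 and cornea 2 for 375. For the 50 members of that level the counts were 21 and 1. Conjunctiva 2 was the lowest clone for 17 of the 64 genes, against 3811 of all 23999 probe sets. These clones were singled out after the values were seen, and 1 clone allows no test.

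**Figure D3:**
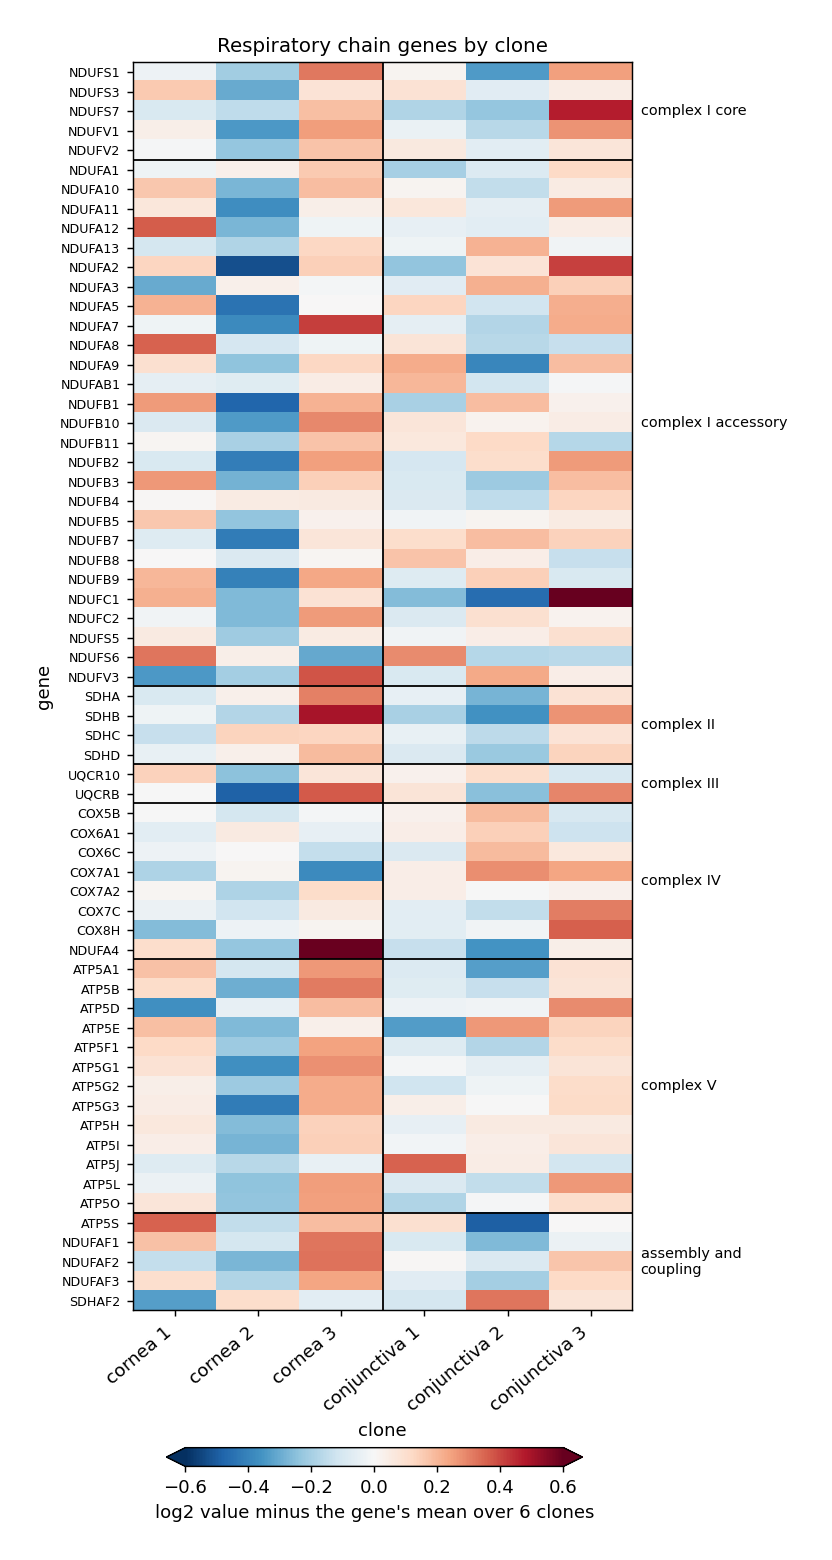
Each gene's log2 value in each clone minus that gene's mean over the 6 clones, with genes in rows by complex and clones in columns. Blue is below and red above the gene's mean, and values beyond 0.6 take the end colour. The column of cornea 2 is blue in most rows of complexes I, III and V and mostly pale in complexes II and IV.

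The low values of cornea 2 were not shared evenly by the complexes. As a mean over genes of the deviation from each gene's 6-clone mean, cornea 2 lay at -0.25 for the complex I core, -0.24 for the accessory subunits, -0.36 for complex III and -0.24 for ATP synthase, but at 0.0044 for complex II and -0.074 for complex IV. It was the lowest clone for 17 of 27 accessory subunits and for 10 of 13 ATP synthase genes, for 2 of 8 complex IV genes and for 0 of 4 complex II genes. Against the mean of the other 2 corneal clones, 54 of 64 genes were lower in cornea 2, with a median of -0.35. The same held for 13553 of all 23999 probe sets, and for 1231 of the 2331 with a mean of 8 or above (median -0.030). By this measure 3 of 4 complex II genes were lower in cornea 2 (median -0.058, from -0.41 for SDHB to 0.14 for SDHC). Of complex IV, 4 of 8 were lower (median -0.0045, from -0.58 for NDUFA4 to 0.30 for COX7A1). The widest gaps were those of NDUFB1 (-0.71), UQCRB (-0.67), NDUFA2 (-0.66) and NDUFB9 (-0.62), and the genes furthest the other way were SDHAF2 (0.31) and COX7A1 (0.30). These genes were picked for their values in that clone.

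Conjunctiva 2 had its lowest means in complex II (-0.26) and in the complex I core (-0.17), and was near the 6-clone mean in the accessory subunits (-0.023), complex IV (0.034) and ATP synthase (-0.039). Over all members the clones stood at 0.028, -0.20 and 0.15 in cornea and at -0.025, -0.057 and 0.11 in conjunctiva. Conjunctiva 3 was above the 6-clone mean in all 7 groups of genes, as was cornea 3. The mean over members was -0.0090 ± 0.18 in cornea and 0.0090 ± 0.088 in conjunctiva (SD, n = 3).

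**Figure D4:**
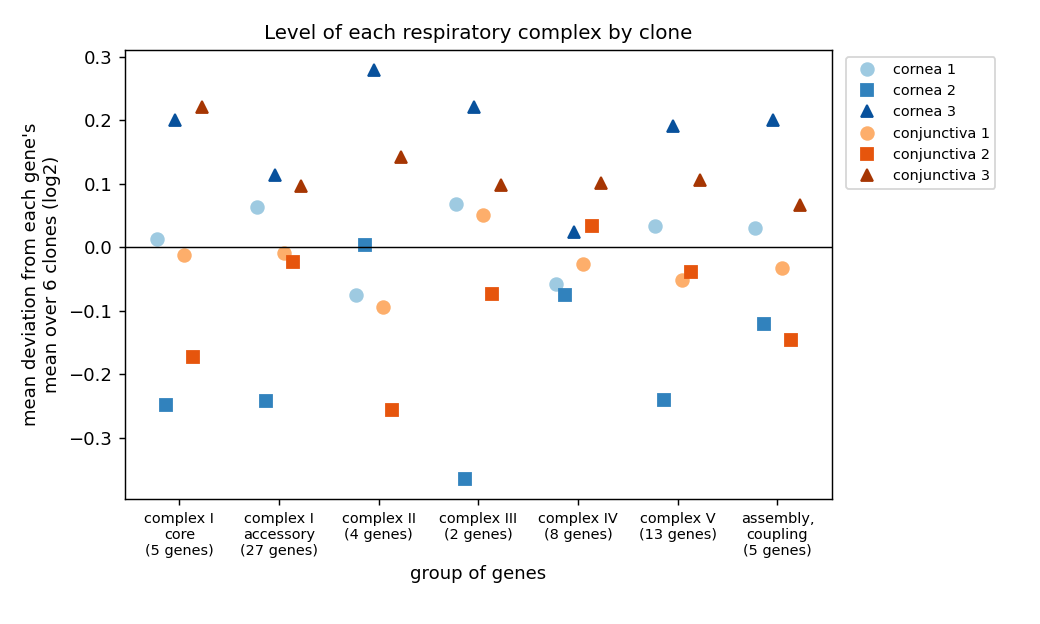
Mean deviation of each group of genes from the 6-clone means (log2), 1 point per clone, with corneal clones in blue and conjunctival clones in orange. Cornea 2 is the lowest point in the complex I, III, IV and V groups, and conjunctiva 2 in complex II, where cornea 2 sits near 0.

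Cornea 2 also stood apart in cell cycle genes. In a list of 18 measured cell cycle genes its mean deviation was -1.05, where the other clones lay between -0.029 and 0.41. In the 6 measured of 21 cornification genes it was 1.36, but conjunctiva 2 lay about as far the other way, at -1.32. The remaining clones reached 0.61 at most in that list. The 3' minus 5' signal, a measure of RNA quality, was 1.07 for actin and 0.52 for GAPDH in cornea 2, within the range of the other clones (0.46 to 1.11 and 0.25 to 0.97). The part of these in the values of the respiratory chain genes was not tested.

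Over all members the median SD within tissue, 0.197, was above the 0.183 of all probe sets tested, while among bright probe sets the members had the lower median. The median was 0.196 over the 50 members with a mean of 8 or above, against 0.251 over all probe sets of that level, and 38 of the 50 were below the latter value. The 2 sets shared only that floor and were not matched on level, with median levels of 9.83 and 9.04. Their largest SD, 0.46 in NDUFC1, was under the 90th percentile of those probe sets, 0.53. By group the median SD was 0.27 for the complex I core, 0.20 for accessory subunits, 0.17 for complex II, 0.26 for complex III, 0.14 for complex IV and 0.20 for ATP synthase.

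**Figure D5:**
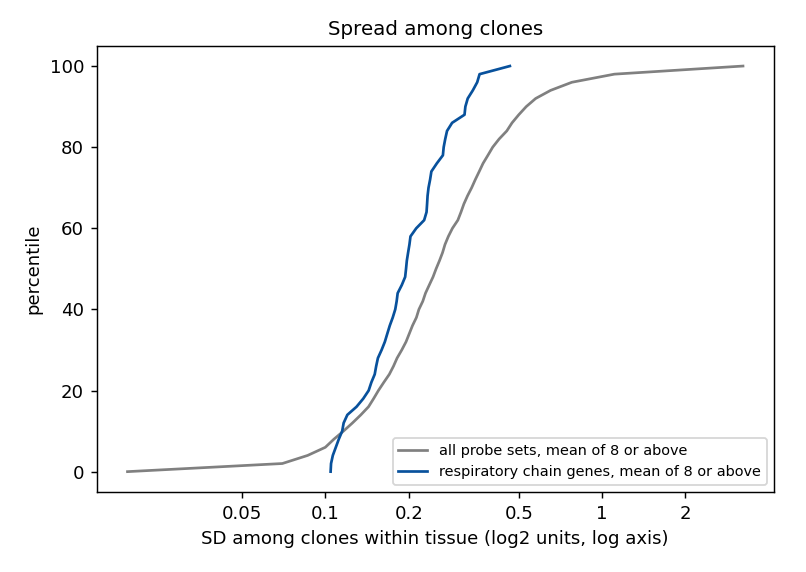
Cumulative distribution of the SD among clones within tissue (log2 units, on a log axis) for the 50 respiratory chain genes and the 2331 probe sets with a mean of 8 or above. The curve of the respiratory chain genes lies to the left over most of its height, with medians of 0.196 and 0.251.

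Genes around the chain gave the same count of 0 past the adjusted threshold in every list. No probe set with 1 symbol carried a listed symbol of a mitochondrially encoded subunit. The 198 probe sets with several symbols and the 13732 without a name were not searched. Of 58 genes of the mitochondrial ribosome, which translates those subunits, 46 were higher in conjunctiva (median 0.089). The same held for 49.2% of all probe sets and for 6588 of 12000 at or above the median level. Cornea 2 was the lowest clone for 37, with a mean deviation of -0.30, where cornea 1 and 3 lay at -0.0056 and 0.18. Conjunctiva 1, 2 and 3 lay at 0.17, -0.11 and 0.066. The lean of this list was not followed with cornea 2 left out. MRPL11 differed by 0.34 (SE 0.21) and MRPS5 by 0.24 (SE 0.14). Of 27 import and membrane genes 16 were higher (median 0.034), cornea 2 being lowest for 14, with TIMM13 at 7.87 in cornea 2 against 8.52 to 8.95 elsewhere (tissue difference 0.38, SE 0.22) and TIMM10 differing by 0.28 (SE 0.16). Of 21 genes of the tricarboxylic acid cycle and pyruvate entry 9 were higher (median -0.028), and cornea 2 was the lowest for 2 while conjunctiva 2 had the lowest mean, -0.22. SUCLG2, a subunit of succinyl-CoA ligase, differed by 0.33 (SE 0.21), and MPC1, a subunit of the pyruvate carrier, by -0.53 (SE 0.30). MPC1 was dim, with a mean of 3.52, below the median of all probe sets, and its corneal clones were at 3.43, 3.38 and 4.53.

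Other assembly factors split into 9 higher and 7 lower, led by TMEM186 at 0.40 (SE 0.14, unadjusted p = 0.0302 and limma adjusted p = 0.9999) and the COX1 translation factor TACO1 at -0.32 (SE 0.23). Carriers and subunits outside the naming rule split into 7 higher and 9 lower, with ETFDH, which feeds electrons from fatty acid oxidation to ubiquinone, at -0.25 (SE 0.17) and the ADP/ATP carrier SLC25A4 at -0.29 (SE 0.24). Among 9 regulators of biogenesis and genes of mitochondrial DNA upkeep, 6 were higher and 3 lower in conjunctiva (median 0.062). In 2 of the 9 the groups did not overlap, against 7.28% of all probe sets, and these 2 ran opposite ways. PPARGC1A, the coactivator that drives mitochondrial biogenesis, was at 3.03, 3.02 and 3.26 in cornea and 2.77, 2.90 and 2.82 in conjunctiva. Its level was dim (difference -0.27, SE 0.11, unadjusted p = 0.0464 and limma adjusted p = 0.9999). TFAM, of mean 6.55, was higher in conjunctiva (difference 0.23, SE 0.18), with conjunctiva 1 at 7.06 and the other clones between 6.42 and 6.50. Its groups barely missed overlapping, with conjunctiva 3 at 6.451 and cornea 2 at 6.450. SIRT3, a mitochondrial deacetylase, differed by 0.32 (SE 0.20), also at a dim level (mean 4.03), with cornea 1 lowest at 3.46. Glycolysis genes split into 6 higher and 10 lower (median -0.032), with PFKP at 0.42 (SE 0.24) and HK1 at -0.27 (SE 0.18), and oxidant defence genes into 6 and 6, with GPX1 at 0.38 (SE 0.17) and UCP3 at -0.22 (SE 0.15).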

How the data were processed

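Total RNA of 6 clones was measured on 1 array each. The deposited log2 values were made by the authors with RMA, per the submitters' processing notes; its version and the arrays normalised together are not given in the sources used here. Its quantile step forces 1 shared distribution on all arrays, which hides any shift of total RNA. Other values used, the fluidics station and module, came from the deposited run settings, per the file headers.

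After 124 control probe sets were left out, 23999 were fitted in limma 3.58.1 (R 4.3.3; lmFit, eBayes, 2-sided, Benjamini-Hochberg adjustment, no covariate). The number of arrays limits the precision. Members were matched by gene identifier to RefSeq (64 of 64), and none had a different symbol there. Over 1 probe set was present for 15 genes, and 4 probe sets with several symbol entries were left out. The probe set that listed only ATP5SL, repeated, was among these, at a mean of 6.92. Members, gene lists and tests were chosen with earlier results of these data known, and the cell cycle and cornification lists were added after them. Members named were, per group, the 3 with the largest difference, the 2 with the largest SD, the 5 smallest p in each direction, and isoform pairs; from other lists, the 2 smallest p. NDUFV1, NDUFA1, NDUFA13, NDUFAB1, NDUFB1, NDUFB4, NDUFB9, NDUFAF3, SDHC, COX5B, COX6C, COX7C, ATP5B and the other ATP synthase genes, TFAM and the markers named by range were added after their values were seen.

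Same-numbered clones deviated together over all probe sets (r = 0.354, 0.169 and 0.349 for numbers 1, 2 and 3), so the number was taken to pair them. The pairing comes from the data, not the labels. Because deviations were taken from each tissue's mean, some matching of the clones is bound to lean positive. Other matchings were not compared, so these values do not show that the number pairs clones. Alternatives were array scaling, variance moderation, a filter on low values, the choice of probe set, the clone number, station and module as blocks, each station alone, and each clone left out. On simulated data over the 23999 probe sets, the fit called 33 of 70 differences of 1 log2 unit, 61 of 70 of 2 and 59 of 60 of 4. These shifts were planted together in independent normal noise, and each was larger than any difference among the members. The rates therefore do not give the power to detect differences of the size seen in the members.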

Additional observations from a re-analysis of the deposited data

How the results depend on the processing

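The number of members past an adjusted p of 0.05 was 0 in every alternative, and the median difference ran from -0.085 (without cornea 2) to 0.094 (without cornea 3). It was 0.061 with median centring, 0.0054 with station as a block, and 0.035 with clone numbers fitted as a block, a pairing that changed no call among members. Over all probe sets the count past the adjusted threshold was 0, but 1 with 1 probe set per gene and 2 with trended, robust moderation. The number of members at an unadjusted p under 0.05 was 0 with the filter on low values, which removes COX7A1, 0 with station as a block, 0 without moderation, 0 within each station, and 2 with the mean of a gene's probe sets; it ran from 0 to 3 when 1 clone was left out, with 3 without cornea 2.

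Among the members chosen by the naming rule, the signs that turned were as follows, and the cause was not tested; members named outside the rule were not followed singly. Median centring gave 0.0015 for NDUFC1. The mean of a gene's probe sets gave -0.0082 for NDUFS3 and 0.11 for SDHB. Station as a block gave -0.012 for UQCR10, -0.099 for ATP5E and -0.020 for ATP5G1. Within station 1 the values were -0.17 for NDUFS3, -0.13 for UQCR10, -0.074 for ATP5G1 and 0.0069 for ATP5G2. Within station 2 they were -0.19 for NDUFS7, -0.043 for NDUFA2, -0.078 for NDUFA3, -0.055 for COX8H, -0.099 for ATP5D, -0.22 for ATP5E, 0.079 for ATP5S, -0.019 for NDUFAF2 and -0.13 for SDHAF2. Leaving out 1 clone gave ranges of -0.19 to 0.10 for NDUFS1, -0.099 to 0.13 for NDUFS3, -0.18 to 0.17 for NDUFS7, -0.059 to 0.14 for NDUFV2, -0.049 to 0.33 for NDUFA2, -0.37 to 0.20 for NDUFC1, -0.38 to 0.0062 for SDHB, -0.094 to 0.097 for UQCR10 and -0.14 to 0.28 for UQCRB. They were -0.022 to 0.11 for COX6A1, -0.040 to 0.11 for COX7A2, -0.085 to 0.22 for ATP5E, -0.18 to 0.15 for ATP5G1, -0.14 to 0.080 for ATP5G2, -0.085 to 0.24 for ATP5G3 and -0.061 to 0.24 for NDUFAF2.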
